A study of Macaca fascicularis with 6 samples.

Results

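The cells described here are the KRT12-high corneal cells of the cynomolgus monkey cornea 3 days after injury. In each of the 2 day 3 samples they were the 25% of cell barcodes with the highest share of their counts from KRT12. They numbered 541 of the 2164 day 3 barcodes, 274 of 1096 in sample 1 and 267 of 1068 in sample 2, out of 7895 barcodes in all 6 samples of the study. They were set against the 50% of barcodes of the same sample with the lowest KRT12 share, called KRT12-low cells here (548 and 534 barcodes). KRT12 made up a median of 3.09% of a KRT12-high cell's counts in sample 1 (range 1.30% to 11.1%) and 3.07% in sample 2 (range 1.352% to 6.91%). The first barcode outside the cut held 1.29% and 1.348%, and KRT12-low cells reached at most 0.0805% and 0.0842%. These values chose the cells, so KRT12 was left out of every sum and test. Genes whose levels travel with KRT12 from cell to cell had to differ between the groups, and a test between them says only whether a difference exceeded the spread between samples.

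KRT12 is the acidic keratin that pairs with the basic keratin KRT3 in the filaments of differentiated corneal epithelial cells, and the pair is a textbook mark of that fate. The corneal epithelium is renewed from basal progenitors at the limbus, the rim next to the conjunctiva, whose cells carry KRT14 and KRT15 and anchor to the basement membrane through integrins and hemidesmosomes. As cells move in and up they take on KRT3 and KRT12, join through desmosomes and store soluble enzymes such as ALDH3A1 and TKT, the corneal crystallins. After an injury, cells at the edge spread over a provisional matrix with fibronectin, switch on the keratins KRT6, KRT16 and KRT17, then divide and stratify again.

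The study took corneal epithelial cells from wild-type Macaca fascicularis that were uninjured, 1 day into healing after a corneal injury, or 3 days into healing, with 2 samples of each. Full-length cDNA from a droplet platform (10x Genomics Chromium) was made into HIT-scISOseq libraries, in which many cDNA molecules are read whole so that transcript isoforms can be told apart. The labels give neither the kind of injury nor the age of the animals. They do not say that the 2 samples of a group came from separate animals, so a p-value here measures sample-to-sample spread alone, and that spread may be technical. To follow the cells over time, the same KRT12 ranking was applied to each uninjured and day 1 sample, which gave 391 and 354 uninjured and 370 and 316 day 1 KRT12-high barcodes. The cut by rank fell at different KRT12 shares. The lowest share of a KRT12-high barcode was 2.20% and 2.30% in uninjured, 2.25% and 2.41% in day 1 and 1.30% and 1.352% in day 3 samples.

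The deposited counts summed to between 3733442 and 4928103 per sample over 14623 genes, and the tables of the 6 samples do not list the same genes (11206 were in all of them). A gene that a table does not list was taken as 0 there and is named as not listed. KRT12-high and KRT12-low barcodes at day 3 had similar depth, with medians of 4577 and 4223 counts against 4549 and 4303. No KRT12-high barcode at day 3 had fewer than 500 counts. Doublet scoring marked 66 barcodes (0.836%) in all, which stayed in. Of the KRT12-high barcodes at day 3, 4 carried a barcode sequence that also occurs in another sample, and 1 barcode was shared by both day 3 samples. In the uninjured samples the KRT12-low cells were shallower than the KRT12-high cells, with medians of 1755 and 2310 against 3632 and 4552 counts, and at day 1 KRT12-low cells reached a KRT12 share of 1.16%, far above its limit at day 3.

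Counts were summed over the barcodes of each group in each sample and compared with edgeR's quasi-likelihood test, with p-values adjusted by Benjamini-Hochberg over all genes tested and called at 0.05. Levels are in CPM, counts scaled to a common library size, given for sample 1 and then sample 2. The value after ± is an approximate standard error, the absolute log2 difference divided by the square root of the test's F statistic. A sum does not tell apart more cells with a gene from more RNA of it per cell. At day 3, 2682 of 10958 genes (24.5%) differed between KRT12-high cells and KRT12-low cells, 1236 (11.3%) higher and 1446 (13.2%) lower in KRT12-high cells. The counts within gene lists below are to be read beside these shares over all genes. The median log2 difference over all genes was 0.01. Scaling to totals alone in place of TMM factors put 58.1% of the called genes on the higher side, against 46.1% in the main fit. Without day 3 sample 1 the counts were 645 higher and 941 lower, and without sample 2 they were 697 and 1015.

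Most genes that mark differentiated cornea were higher in KRT12-high cells. Cells chosen by KRT12 had to be higher in genes that travel with it, such as KRT3 and TGFBI, so this is no test of the label. Of 17 such genes tested, 13 were higher and 2 lower, with a median log2 difference of 0.90. KRT3, the partner of KRT12, stood at 6990.4 and 6891 CPM in KRT12-high cells and 254 and 308 in KRT12-low cells. Both KRT12-high sums lay far above both others, and the log2 difference was 4.63 ± 0.093 (edgeR adjusted p = 9.69e-57). TGFBI, an extracellular matrix protein in which mutations cause corneal dystrophies, was at 4317 and 4370.0 against 954 and 781 CPM (2.33 ± 0.070). DSG1, a desmosomal cadherin of upper epithelial layers, was at 1427 and 1396 against 393 and 417 CPM (1.80 ± 0.070). In each of these genes the samples of a group lay close together and the groups did not overlap. SLURP1, a secreted protein that dampens inflammation at the ocular surface, was at 86.4 and 76.5 against 20.7 and 16.6 CPM (2.12 ± 0.20). KRT24, a keratin of differentiated stratified cells, was at 8369 and 6371 against 2354 and 2234 CPM (1.67 ± 0.066).

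Of 12 crystallin and dehydrogenase genes 5 were higher, 2 lower and 5 did not pass (median 0.19). ALDH3A1, which removes aldehydes formed by ultraviolet light, was at 11045 and 10716 CPM in KRT12-high cells and 3777 and 2919 in KRT12-low cells (1.71 ± 0.080). TKT, the pentose phosphate enzyme transketolase, differed by 1.26 ± 0.069, and ALDH1A1, a retinal dehydrogenase, by 1.24 ± 0.068. MGARP, a mitochondrial protein, was at 1350.1 and 1364 against 93.1 and 84.0 CPM (3.93 ± 0.086). The corneal differentiation genes that were lower were AQP5 and ALDH1A3. AQP5, a water channel of corneal epithelium and secretory glands, was at 14.3 and 5.81 against 1723 and 1393 CPM (-7.25 ± 0.15). ALDH1A3, another retinal dehydrogenase, was at 76.6 and 70.7 against 732 and 744 CPM (-3.32 ± 0.11). MAL (log2 0.01) and CLU (-0.06) did not pass.

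**Figure D1:**
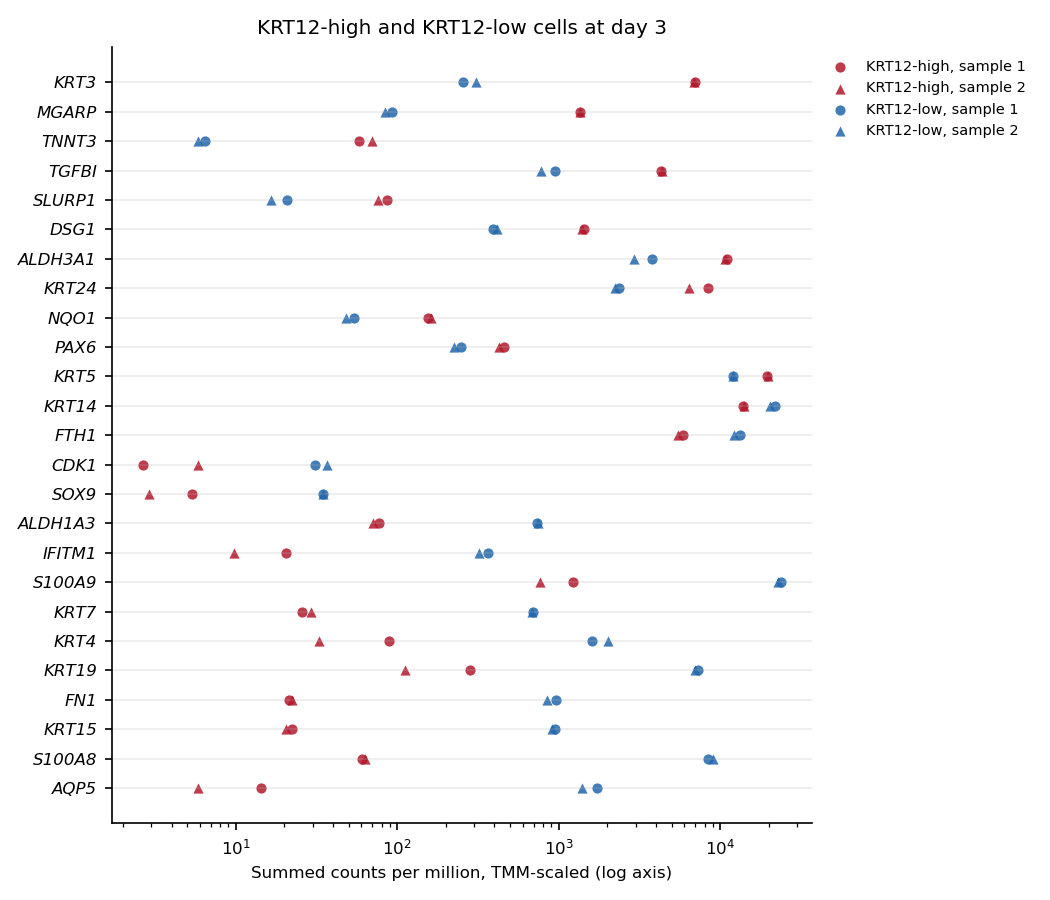
Levels of 25 genes in the 2 day 3 samples, in CPM on a log axis, with circles for sample 1 and triangles for sample 2, KRT12-high cells in red and KRT12-low cells in blue. The 2 samples of a group lie close together for most genes, and KRT3 (6990.4 and 6891 against 254 and 308) and S100A8 (60.6 and 62.9 against 8451 and 9074) show how far the groups stand apart in each direction.

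Outside the lists, the genes with the largest excess in KRT12-high cells were of varied kinds. ETNPPL, a lyase that degrades phosphoethanolamine, was at 27.6 and 29.0 CPM and had no count in KRT12-low cells, which makes it at least 39.8-fold higher against a floor of 3 counts over that group. Most KRT12-high barcodes had no count of it either, as 26 of 274 and 27 of 267 had one. TNNT3 and TNNI2, subunits of fast skeletal muscle troponin, were higher by 3.35 and 2.58 on the log2 scale. TNNT3 stood at 57.9 and 69.7 CPM against 6.45 and 5.86, with no overlap, and had counts in 48 and 52 KRT12-high barcodes. SCIN, an actin-severing protein, differed by 3.01. CRTAC1, an extracellular matrix protein first named in cartilage, was at 478 and 399 against 59.0 and 65.4 CPM (2.82). PLA2G4A, the phospholipase that frees arachidonic acid, differed by 2.66. Among listed genes, KIT, a receptor tyrosine kinase placed in the list of melanocyte markers, was at 46.3 and 42.6 against 4.15 and 0.977 CPM (4.06 ± 0.34). It had counts in 48 and 40 KRT12-high barcodes. The other markers of that list were rare in both groups. In KRT12-high cells MLANA, TYRP1 and DCT had no count, PMEL had 6 and 4 and MITF 3 and 5. In KRT12-low cells TYRP1 had no count either, MLANA had 29 and 0, DCT 4 and 0, PMEL 30 and 29 and MITF 8 and 4.

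Desmosome genes moved with corneal keratins. Of 15 tested, 11 were higher, 1 lower and 3 did not pass (median 0.57). DSP, the plakin that ties keratin filaments to the desmosome, was at 4575 and 4717 CPM against 2158 and 2428 (1.02 ± 0.064). DSC3 differed by 1.31, PKP3 by 1.00 and PKP1 by 0.91. DSG2, the desmoglein of simple epithelia, was the one below, at 10.7 and 15.5 against 62.2 and 73.2 CPM (-2.37 ± 0.23). Among 10 tight and gap junction genes, 3 were higher and 2 lower. The higher ones included CLDN1 (1.34), the barrier claudin of stratified epithelium. CLDN4 was lower (-0.45), though not against KRT12-low cells without KRT4 or KRT7 counts (0.066), a comparison described below. CLDN10 had 3 counts in KRT12-high cells and was higher in KRT12-low cells by a ratio of 35.1 (95% counting interval 11.8 to 172).

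The transcription factors of corneal and epithelial identity went both ways, with 7 of 21 higher, 7 lower and a median of 0.02, but 6 higher and 2 lower (median 0.32) against KRT12-low cells without KRT4 or KRT7 counts. PAX6, the regulator of eye development that activates KRT12, was at 457 and 428 CPM in KRT12-high cells and 249.8 and 225 in KRT12-low cells (0.90 ± 0.082). TFAP2A (0.78), KLF4 (0.71) and TP63 (0.55) were also higher. SOX9 and BARX2 were lower. SOX9, a factor of progenitor and glandular cells, was at 5.35 and 2.90 against 34.6 and 34.7 CPM (-3.03 ± 0.37), and BARX2, a homeobox factor of glandular epithelium, was at 3.56 and 6.78 against 46.6 and 54.7 (-3.29 ± 0.31).

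Basal and limbal genes were mixed, with 6 of 19 higher, 8 lower and a median at -0.00. KRT5, the basic keratin of basal layers, was higher, at 19393 and 19726 CPM against 12011 and 12035 (0.70 ± 0.076). Its usual partner KRT14 was lower, at 13794 and 14087 against 21773 and 20347 CPM (-0.59 ± 0.090), but remained abundant in KRT12-high cells. KRT15, a keratin of limbal basal cells, was at 22.3 and 20.3 against 945 and 909.7 CPM (-5.44 ± 0.15). The samples of each group lay close together in all 3 keratins, and the groups did not overlap. The calcium-binding protein S100A2, a mark of basal keratinocytes, was at 575 and 733 against 2761 and 3341 CPM (-2.23 ± 0.069). SFRP1, a secreted Wnt inhibitor, was at 74.9 and 72.6 against 38.7 and 23.0 CPM (1.25 ± 0.19), although DESeq2 did not call it. With fixed cuts on KRT12 share (over 2% and under 0.1%), chosen after seeing the data, the list stood at 4 higher and 11 lower with a median of -0.87.

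Genes of adhesion to the basement membrane were mostly lower. Of 19 integrin, laminin and hemidesmosome genes, 11 were lower and 3 higher (median -0.57). ITGB1, the common beta subunit, was at 103 and 143 CPM in KRT12-high cells and 272 and 273 in KRT12-low cells (-1.15 ± 0.10). ITGA2 differed by -1.20 and ITGB6, the epithelial integrin of healing wounds, by -1.36. The higher ones were LAMA5 (0.45), COL17A1 (0.42) and PLEC (0.33). With the fixed cuts none of the 19 was higher and 15 were lower, and COL17A1 stood at -0.15 against KRT12-low cells without KRT4 or KRT7 counts.

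Of 28 genes of migration and matrix, 20 were lower in KRT12-high cells and 3 higher (median -1.50). FN1, the fibronectin of provisional matrix, was at 21.4 and 22.3 CPM against 956 and 850.1 (-5.37 ± 0.12; adjusted p = 9.86e-52 by edgeR). MMP1, a collagenase, was at 19.6 and 41.6 against 253 and 260.3 CPM (-3.08 ± 0.15). VIM, the filament protein of migrating and mesenchymal cells, was at 176 and 184 against 651 and 458 CPM (-1.62 ± 0.089). The groups stood apart in all of these, with sample 2 of the KRT12-high cells above sample 1 for MMP1. MMP13 had 2 counts in KRT12-high cells, and the ratio in favour of KRT12-low cells was 39.4 (95% counting interval 10.7 to 328). The genes on the higher side were THBS1 (1.00), a matrix glycoprotein, PLAU (0.93), the urokinase that starts fibrinolysis, and SDC1 (0.77), a cell-surface proteoglycan. PLAUR, the receptor of PLAU, was lower, at 25.8 and 35.8 against 148 and 184 CPM (-2.43 ± 0.15). Of 18 genes of the actin cytoskeleton 14 were lower and none higher. TPM1, a tropomyosin, was at 126 and 117 against 656 and 657 CPM (-2.43 ± 0.090), and TAGLN differed by -2.77.

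Keratins of conjunctiva and simple epithelia were low. KRT19 was at 283 and 112 CPM in KRT12-high cells and 7304 and 7024 in KRT12-low cells (-5.18 ± 0.11). KRT4 was at 89.1 and 32.9 against 1614 and 2006 CPM (-4.85 ± 0.12), and KRT7 at 25.8 and 29.0 against 697 and 681 (-4.65 ± 0.13). KRT19 and KRT4 were higher in KRT12-high sample 1 than in sample 2, but both were far below the KRT12-low sums. AQP3, a water and glycerol channel, was at 81.1 and 117 against 896 and 839 CPM (-3.14 ± 0.11). In the conjunctival list as a whole 5 of 6 tested genes were lower and S100A4 was higher (0.75). The list median of -3.89 turned to 0.42, with 3 higher and 3 lower, once KRT12-low barcodes with KRT4 or KRT7 counts were left out. TFF1 and SPDEF, marks of goblet cells, had no count in KRT12-high cells. They were not among the 6 of 8 listed genes with enough counts to be tested, so no difference is shown for them.

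The comparison was repeated with a KRT12-low group stripped of every barcode with a count of KRT4 or KRT7, an alternative added after seeing the data that left 98 and 83 barcodes. It called 606 genes higher and 594 lower. Corneal differentiation then stood at 14 higher and 3 lower of 17, desmosomes at 10 higher and 1 lower of 15, and migration and matrix at 3 higher and 16 lower of 26. The log2 difference of KRT3 was 3.60 there, that of KRT19 -4.29 and that of FN1 -4.68. The cornified envelope list turned from 5 higher and 10 lower of 18 (median -0.34) to 8 higher and 2 lower of 17 (median 0.44). Basal and limbal genes went from 6 higher and 8 lower to 2 and 8 of 19, hemidesmosome and integrin genes from 3 and 11 to none and 11, and retinoid genes from 4 and 8 of 14 to 1 and 5 of 12.

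Markers of other cells were counted in both groups. Sums over these lists are CPM over the total counts of each group, without the TMM factors used for single genes. The 6 keratocyte and fibroblast markers summed to 611 and 682 CPM on that scale in KRT12-high cells and 614 and 564 in KRT12-low cells, and most of these counts were of DCN, a matrix proteoglycan. Of the 4 tested 1 was higher, which was DCN (0.34), and 3 lower (median -1.51). COL1A1, the collagen of fibroblasts, had 10 and 7 counts against 201 and 164, and LUM, the lumican of corneal stroma, 16 and 18 against 83 and 89, so that these moved the same way as FN1 and VIM. The 7 immune markers summed to 152 and 104 against 251 and 213. None of the keratocyte or immune markers was at 0 in KRT12-high cells. The 6 melanocyte markers summed to 49.99 and 47.5 against 32.1 and 14.8. KIT made up 52 and 44 of these counts in KRT12-high cells but 9 and 2 in KRT12-low cells, where PMEL had 30 and 29 and MLANA 29 and 0. The 3 corneal endothelium markers summed to 18.8 and 9.85 against 25.3 and 18.1, with COL8A2 at 0 in KRT12-high cells. The 2 vascular markers, too rare to be tested, summed to 6.56 and 6.27 against 1.21 and 2.95. The 8 conjunctival and goblet genes summed to 23743 and 23292 against 22021 and 22751. They include S100A4, the gene with the most counts in KRT12-high cells of both samples once KRT12 is left out. The part of such cells in any difference was not tested.

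Alarmins and stress keratins were lower in KRT12-high cells than in KRT12-low cells, with 7 of 9 lower, 1 higher and a median of -2.15, or 5 lower and 1 higher of 8 (median -0.74) against KRT12-low cells without KRT4 or KRT7 counts. S100A8 and S100A9 form calprotectin, a protein of neutrophils and of stressed epithelium. S100A9 was at 1219 and 762 CPM against 23681 and 22859 (-4.58 ± 0.10). S100A8 was at 60.6 and 62.9 against 8451 and 9074 CPM (-7.15 ± 0.10). The ratio of S100A9 to S100A8 was 20.1 and 12.1 in KRT12-high cells against 2.80 and 2.52 in KRT12-low cells, so the pair was not present in one proportion. KRT17 was lower (-2.15), KRT16 slightly lower, at 4915 and 4299 against 5739 and 5782 CPM (-0.32 ± 0.065), and KRT6A higher, at 18629 and 17539 against 13676 and 14221 CPM (0.37 ± 0.075). The cornified envelope genes TGM1, the transglutaminase that crosslinks it (1.33), and EVPL, envoplakin (0.95), were higher. RHCG, an ammonia channel of superficial squamous cells, was at 3.56 and 0.968 against 177 and 157 CPM (-6.13 ± 0.28). Of 6 membrane mucin and glycocalyx genes 5 were lower and none higher, but 2 were lower and 1 higher against KRT12-low cells without KRT4 or KRT7 counts and 4 and 1 against all other barcodes. MUC1 was at 41.0 and 31.0 against 274 and 261 CPM (-2.89 ± 0.14).

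Cell division genes were lower without exception among those that passed. Of 17 mitosis genes tested 16 were lower, with a median of -1.63, and of 17 DNA replication genes 5 were lower and none higher. CDK1, the kinase that starts mitosis, was at 2.67 and 5.81 CPM against 30.9 and 36.6 (-2.99 ± 0.39). MKI67 was at 8.91 and 8.71 against 30.9 and 28.8 CPM (-1.75 ± 0.34). RRM2, a subunit of ribonucleotide reductase, was at 2.67 and 8.71 against 31.8 and 38.1 CPM (-2.63 ± 0.37). These are low counts, and 17 of 23 mitosis genes could be tested. Genes as rare in KRT12-high cells as CDK1 passed the filter only through other groups. DESeq2 called only 2 of the 17 mitosis genes, both lower.

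Retinoid genes differed in both directions, 4 higher and 8 lower of 14 (median -1.34). Besides ALDH1A1, the retinoic acid hydroxylase CYP26B1 was higher, at 49.9 and 39.7 CPM against 15.7 and 20.5 (1.32 ± 0.22). Antioxidant genes were lower more often than higher (10 and 3 of 18). NQO1, a quinone reductase, was higher, at 154 and 161 against 53.9 and 48.3 CPM (1.62 ± 0.13), as was GPX1 (0.87), and GPX2 was lower (-2.19). FTH1, the heavy chain of the iron store ferritin, was at 5893 and 5486 against 13334 and 12199 CPM (-1.17 ± 0.079).

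Cytokine and interferon genes went both ways. Of 16 interleukin-1 and chemokine genes 6 were lower and 1 higher, and the higher one was IL36RN, the antagonist of the IL-36 receptor (1.69). CXCL6, a neutrophil attractant, was at 11.6 and 10.6 CPM against 690.0 and 774 (-6.03 ± 0.15). Of 21 interferon response genes 4 were higher and 7 lower (median -0.23), with 1 and 3 by DESeq2, and 2 and 2 of 19 (median 0.14) against KRT12-low cells without KRT4 or KRT7 counts. IFITM1 was at 20.5 and 9.68 against 364 and 320.3 CPM (-4.48 ± 0.16). Of 18 genes of TGF-beta and BMP signalling 2 were higher and 7 lower, or none and 4 by DESeq2, among them the receptor TGFBR2 (-2.60) and the activin antagonist FST (-3.43). Of 12 nuclear genes of oxidative phosphorylation 7 were higher and 1 lower (median 0.36), with 3 and 1 by DESeq2.

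Most proteases and protease inhibitors that passed the test were lower. The kallikreins KLK10, KLK11 and KLK13, secreted serine proteases, had 1, 3 and 1 counts in KRT12-high cells, and their ratios in favour of KRT12-low cells were 120 (95% counting interval 21.3 to 4743), 51.3 (17.4 to 250.0) and 69.0 (12.2 to 2745). Of 12 serpin and protease genes 7 were lower and 1 higher, which was the cysteine protease CTSV (0.84), while against KRT12-low cells without KRT4 or KRT7 counts 5 of 11 were lower and 4 higher. SERPINB1, an inhibitor of neutrophil proteases, was at 982 and 825 CPM against 2011 and 2251 (-1.24 ± 0.071), and differed by -0.36 against those cells. DPYSL3, a cytoskeletal protein of the collapsin response, had no count in KRT12-high cells and stood at 79.3 and 59.6 CPM in KRT12-low cells, at least 50.1-fold lower against the same floor. PIP, a secreted protein of glands, was at 6.24 and 3.87 CPM in KRT12-high cells (-6.49 ± 0.19). Its KRT12-low samples had a mean of 466 CPM with a standard deviation of 47.5, and the groups did not overlap.

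Listed genes of growth signals passed the test in both directions. Over all genes 11.3% were higher and 13.2% lower, and DESeq2 called 1087 of 10958. Of 14 Wnt genes 4 were higher and 1 lower (median 0.14, or 0.38 with genes at 0 set to their bound, and -0.15 with the fixed cuts). WNT16 was at 96.2 and 97.8 CPM in KRT12-high cells and 46.6 and 52.2 in KRT12-low cells (0.97 ± 0.15), while the receptor FZD6 was lower (-0.48), a call lost against KRT12-low cells without KRT4 or KRT7 counts (-0.20, adjusted p = 0.742). Of 11 genes of the EGF family 3 were higher and 3 lower, and with DESeq2 none and 1. The ligand AREG was lower, at 437 and 401 against 616 and 645 CPM (-0.59 ± 0.080), a call also lost against those cells (-0.24, adjusted p = 0.179), and the receptor ERBB3 was higher (0.45). The BMP target ID3 was lower (-0.95) and ID1 higher (0.30). Of 12 Notch genes 2 were lower and none higher, fewer calls than the 24.5% over all genes, and with DESeq2 none passed. By DESeq2 the Wnt list had 2 of 14 genes higher and none lower. Among 13 targets of p53, 3 were higher and 6 lower, with 3 and 3 by DESeq2. SFN, the 14-3-3 protein of keratinocytes, was at 4435 and 4199 against 2753 and 2543 CPM (0.71 ± 0.073), and the stress cytokine GDF15 had 2 counts in KRT12-high cells and was higher in KRT12-low cells by a ratio of 16.9 (95% counting interval 4.49 to 142).

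**Figure D2:**
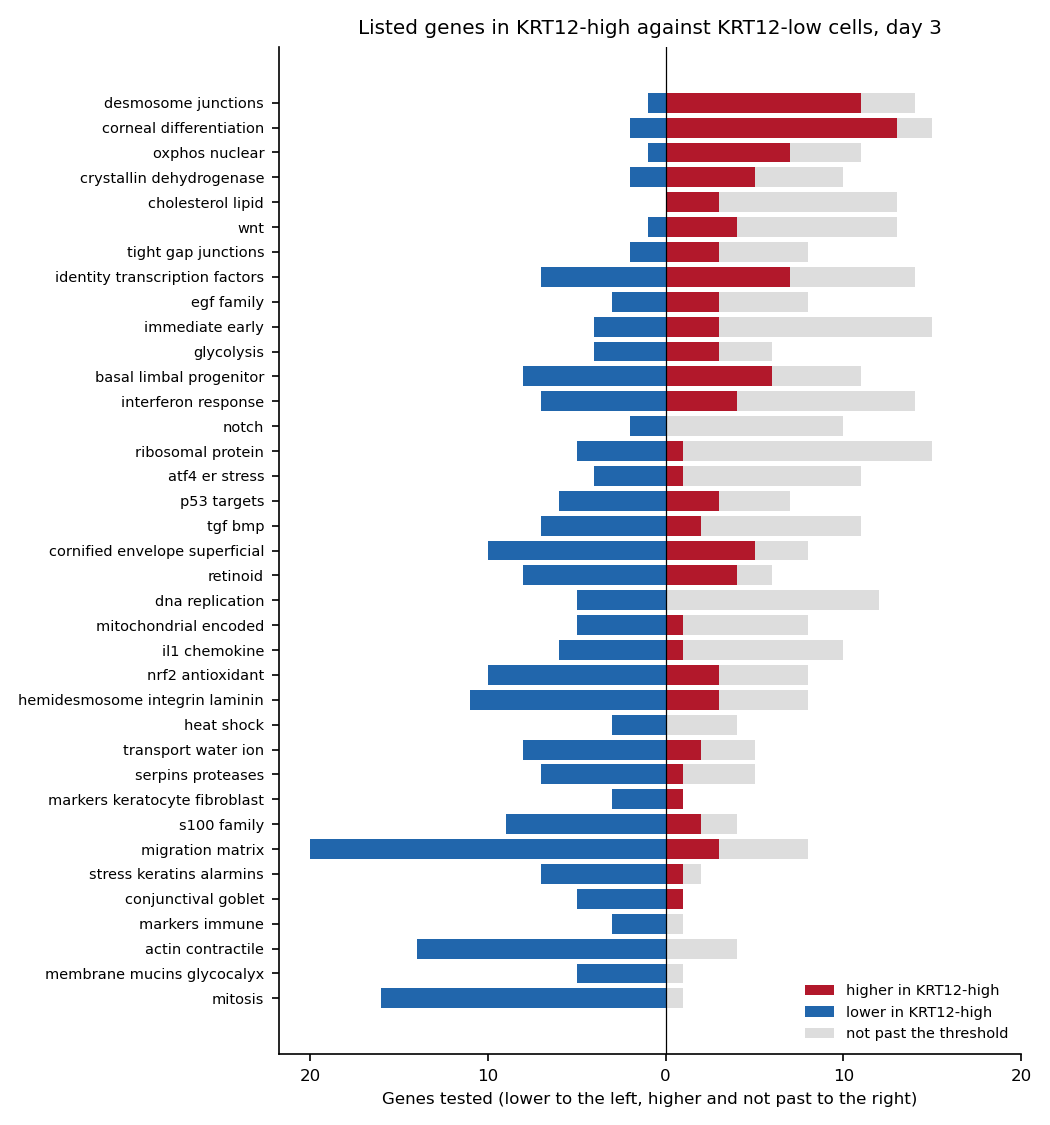
Number of genes of each list that were lower (blue, to the left) or higher (red, to the right) in KRT12-high cells than in KRT12-low cells at day 3, with genes not past the test in grey, for lists with at least 4 genes tested. Corneal differentiation (13 higher, 2 lower) and desmosomes (11 and 1) lie to the right, and mitosis (0 and 16), migration and matrix (3 and 20) and actin genes (0 and 14) to the left.

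Quartile groups of the day 3 barcodes by KRT12 share showed which genes were higher at each step and which peaked just below the KRT12-high cells. KRT3 stood, from the lowest to the highest quartile, at 213, 228, 1189 and 6428 in sample 1 and 157, 361, 915 and 6377 in sample 2 (CPM here without TMM factors). MGARP took the same course, at 50.1, 108, 664 and 1242 in sample 1 and 45.2, 96.4, 654 and 1262 in sample 2. S100A8 took the opposite one, at 9405, 5591, 158 and 55.7 in sample 1 and 9358, 6507, 430.0 and 58.2 in sample 2, and most of its drop lay between the second and the third quartile. ALDH3A1 was highest in the third quartile, at 3311, 3275, 14461 and 10157 in sample 1 and 2284, 2727, 14326 and 9917 in sample 2. COL17A1, the hemidesmosome collagen of basal cells, was also highest there, at 254, 213, 813 and 329 in sample 1 and 176, 217, 866 and 285 in sample 2. CXCL14, a chemokine of basal epithelium, was at 688, 529, 3024 and 875 in sample 1 and 551, 650.1, 3290.3 and 868 in sample 2. So the KRT12-high cells lay above KRT12-low cells in these last 3 genes but below the quartile next to them, in both samples. The quartiles were cut from the KRT12 share, and no test was made between them.

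**Figure D3:**
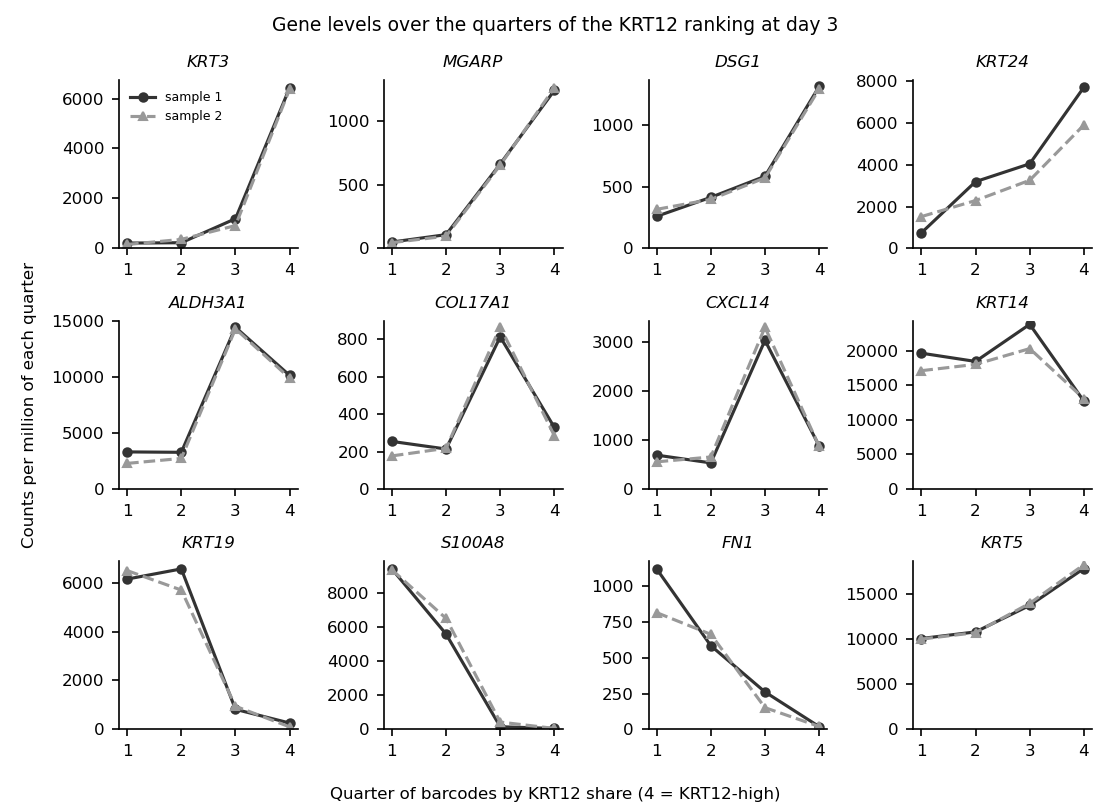
Level of 12 genes in CPM in each quartile group of the day 3 barcodes by KRT12 share, with 1 line per sample and the KRT12-high cells as the highest quartile. KRT3, MGARP and DSG1 climb to the highest quartile, ALDH3A1, COL17A1, CXCL14 and KRT14 peak in the third quartile, and KRT19, S100A8 and FN1 fall from the lowest quartiles.

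Over single barcodes, the genes most like KRT12 among 4504 compared were MGARP, PTGS2, TGFBI, KRT3 and ERICH5, with mean Spearman correlations with the KRT12 share over both samples of 0.790, 0.698, 0.690, 0.683 and 0.581. The points share a library within each sample, and zeros and depth enter the ranks, so these values are a description. KRT19 lay at the other end (-0.608). Among the KRT12-high cells themselves the spread was wide. A KRT14 level of 9322 CPM was the median in sample 1, with 10% of cells under 185 and 10% over 29050, and sample 2 gave 9416, 189 and 30503. For KRT24 the median was 3213 CPM in sample 1 and 1957 in sample 2, with a 10th percentile of 0 and a 90th of 19461 and 13987. KRT5 varied less, from 10631 to 24450 CPM between the same percentiles of sample 1.

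Within the KRT12-high cells, KRT24 ran opposite to ALDH3A1 and TKT but not to ALDH1A1. The Spearman correlation of KRT24 with ALDH3A1 was -0.70 over the 274 barcodes of sample 1 and -0.69 over the 267 of sample 2, with TKT -0.70 and -0.64, and with ALDH1A1 0.16 and 0.17. KRT24 and COL17A1 gave -0.60 and -0.58, and KRT24 and LYPD2, a membrane-anchored protein, 0.54 and 0.53. ALDH3A1 went with COL17A1 (0.52 and 0.60), CXCL14 (0.54 and 0.58) and TKT (0.58 and 0.56), and against KRT6A (-0.57 and -0.59). KRT5 and KRT6A went together (0.58 and 0.61). The genes of these pairs were chosen after their values were seen, and the barcodes of a sample share its library and depth.

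Cells chosen by other genes overlapped the KRT12-high cells to different degrees, where 25% of all barcodes of a sample were KRT12-high by the cut. Of the 25% of barcodes highest in KRT3, 217 of 274 and 208 of 267 were KRT12-high, and of those highest in KRT24, 152 and 147. Of those highest in KRT14, 30 and 43 were KRT12-high, and of those highest in KRT7, 2 (0.730%) and 8 (3.00%). Of the barcodes with at least 1 count of COL17A1, 159 of 580 and 136 of 544 were KRT12-high, which is 58.0% and 50.9% of the KRT12-high cells.

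The second question was how the KRT12-high cells of day 3 differed from those of the other days. Against the uninjured KRT12-high cells, 3778 of 9414 genes (40.1%) changed, 2046 (21.7%) higher and 1732 (18.4%) lower at day 3, with a median log2 change of -0.03 over all genes. Against day 1, 4229 (44.9%) changed, 2180 (23.2%) higher and 2049 (21.8%) lower, with a median of 0.00. Scaling to totals alone moved these medians to -0.41 and -0.12. Against uninjured cells it left 24.2% of the called genes on the higher side, where the main fit had 54.2%, so changes below about that shift depend on the scaling. The share of counts from mitochondrial genes was 4.42% in both day 3 samples, 5.54% and 5.22% at day 1, and 6.85% and 7.06% in uninjured KRT12-high cells, and its part in these differences was not tested. The comparisons with uninjured and day 1 cells share the day 3 sums. The cut by rank admitted barcodes of lower KRT12 share at day 3 than on the other days. With the fixed cuts 1984 genes were higher and 1543 lower than in uninjured cells, and 2153 and 1958 than at day 1. Hemidesmosome and integrin genes went from 8 higher and 3 lower of 19 against uninjured cells to 4 and 9 of 18.

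KRT3 showed no change that passed the test. It was at 7773 and 7783 CPM in uninjured, 7143 and 7456 in day 1 and 6990.4 and 6891 in day 3 KRT12-high cells (log2 -0.18 against uninjured and -0.07 against day 1, neither past the test). Scaling to totals alone moved the median of all genes against uninjured cells from -0.03 to -0.41, by more than KRT3 differed. In what follows, paired log2 changes are against uninjured and against day 1 KRT12-high cells, in that order. TGFBI was at 5909 and 5791 CPM in uninjured, 4025 and 4115 in day 1 and 4317 and 4370.0 in day 3 cells, lower than in uninjured cells (-0.44 ± 0.082) with no call against day 1. ALDH1A1 fell against both (-0.77 and -0.49). Over the 17 corneal differentiation genes 8 were higher and 7 lower than in uninjured cells (median -0.04), and 4 and 9 with totals alone. UPK1B, a tetraspanin of corneal epithelium, was higher than in uninjured cells (1.70), and MAL, a membrane raft protein, was lower (-1.25).

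Other keratins changed far more. KRT14 was at 32.8 and 80.1 CPM in uninjured, 147 and 106 in day 1 and 13794 and 14087 in day 3 KRT12-high cells, a log2 change of 7.91 ± 0.19 and 6.77 ± 0.18 (edgeR adjusted p = 3.49e-26 and 2.01e-24). Neither earlier day came near the day 3 level. KRT16 was at 0 and 2.64 CPM in uninjured, 10.3 and 25.1 in day 1 and 4915 and 4299 in day 3 cells, a log2 change of 11.58 and 8.07. KRT6A was at 139 and 106 CPM in uninjured, 3951 and 4548 in day 1 and 18629 and 17539 in day 3 cells (7.19 and 2.09), with day 1 between the others. KRT24 took the same order, at 661 and 707 CPM in uninjured, 4751 and 4552 in day 1 and 8369 and 6371 in day 3 cells (3.42 and 0.67). KRT5 was at 7630.1 and 7502 CPM in uninjured, 6949 and 7425 in day 1 and 19393 and 19726 in day 3 KRT12-high cells (1.36 and 1.45). KRT15 went the other way against uninjured cells, at 354 and 423 CPM in uninjured, 9.55 and 2.90 in day 1 and 22.3 and 20.3 in day 3 cells (-4.20 and 1.70).

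Alarmins, cornified envelope and S100 genes were higher at day 3. All 8 stress keratins and alarmins tested and all 12 S100 family genes were higher than in uninjured cells, with medians of 6.67 and 2.17, where 6.17 is the first median with genes at 0 set to their bound. S100A9 had 1 count in uninjured KRT12-high cells, and its ratio was 3574 (95% counting interval 641 to 141242). It stood at 113 and 80.2 CPM at day 1 and 1219 and 762 at day 3 (3.35). S100A8 had no count in uninjured KRT12-high cells and was at least 73.5-fold higher at day 3. A gene with no uninjured count passed the filter only through a later day and could not have been called lower. The cornified envelope list below holds such genes too. Of 15 cornified envelope genes 11 were higher and none lower than in uninjured cells, and 13 higher and 1 lower than at day 1. CSTA, a cysteine protease inhibitor of the envelope, was at 105 and 117 CPM in uninjured, 66.8 and 43.5 in day 1 and 946 and 1037 in day 3 cells, a log2 change of 3.14 and 4.15. ECM1, a matrix protein of skin, rose by 4.21 and 3.46. SPINK5, an inhibitor of epidermal kallikreins, was at 1.79 and 0 CPM in uninjured and 1291 and 1094 in day 3 KRT12-high cells, a ratio of 1426 (interval 487 to 6919), and was not listed at day 1.

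Genes of migration and matrix were higher than in uninjured cells in 18 of 20 cases with none lower, and than at day 1 in 12 with 2 lower. Of 29 such genes measured, 20 had enough counts to be tested, and 2 of them had no count in 1 group of the uninjured comparison. FN1 had no count in uninjured or day 1 KRT12-high cells, so it passed the filter only through day 3. It could not have been called lower. With the fixed cuts 13 of 19 were higher and 1 lower than in uninjured cells, and 7 were higher and 5 lower than at day 1, where the median went from 1.00 to 0.06. VIM had 3 counts in uninjured KRT12-high cells and stood at 1.59 and 2.90 CPM at day 1 and 176 and 184 at day 3, a ratio to uninjured of 214 (interval 72.7 to 1042). VIM was thus below KRT12-low cells at day 3 and above its own uninjured level. PLAU was at 63.8 and 61.7 CPM in uninjured, 333 and 368 in day 1 and 476 and 493 in day 3 cells (2.93 and 0.47). ITGA2 was at 144 and 156 CPM in uninjured, 538 and 543 in day 1 and 148 and 174 in day 3 cells and fell by 1.74 on the log2 scale against day 1. Of 15 desmosome genes 9 were higher and 1 lower than in uninjured cells, against 5 and 4 with totals alone, and PKP1 (1.70) and DSG3 (2.15) were among the higher ones.

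**Figure D4:**
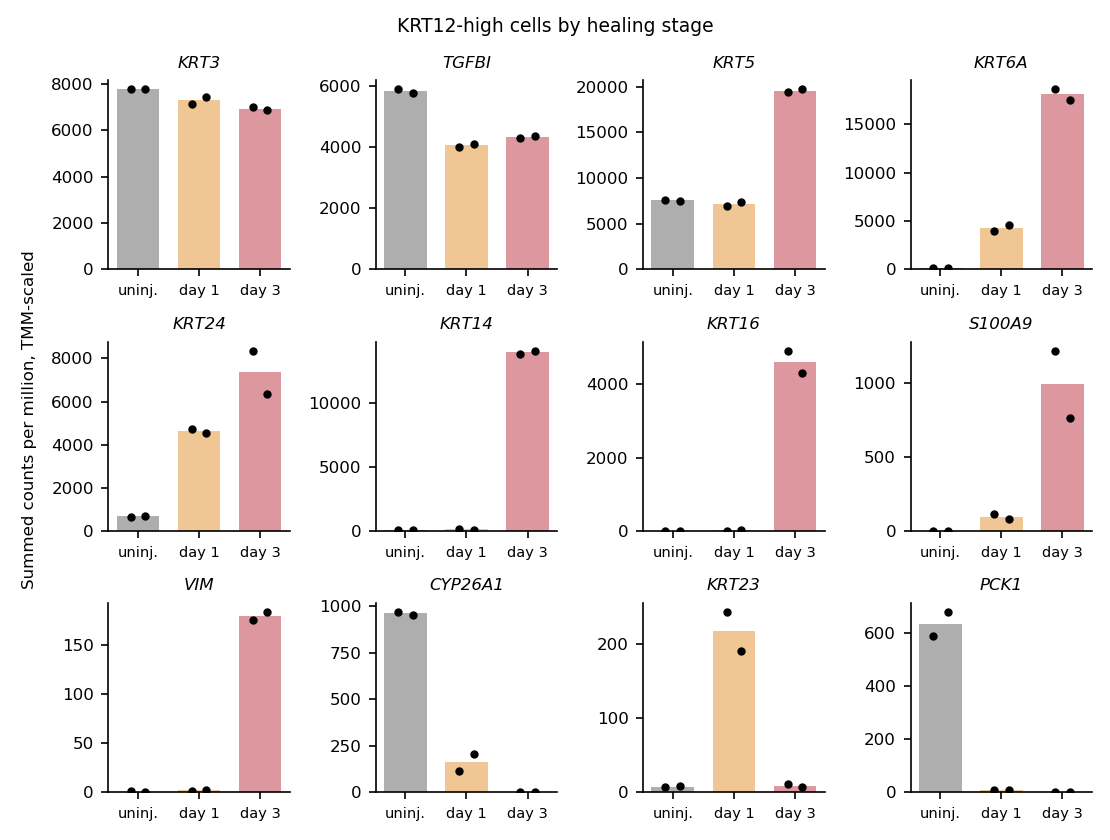
Level of 12 genes in KRT12-high cells of uninjured, day 1 and day 3 samples in CPM, with bars for the mean of 2 samples and dots for the samples. KRT3 lies between 6891 and 7783 CPM in every sample, and KRT14 is at 13794 and 14087 CPM at day 3 against 147 or less in each earlier sample.

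Interferon response genes were higher at day 3 in 15 of 20 cases against uninjured cells and 11 of 20 against day 1, with 1 and 4 lower. IFI27 was at 114 and 91.7 CPM in uninjured, 72.4 and 58.0 in day 1 and 2189.6 and 2006 in day 3 KRT12-high cells (fold 20.2 and 32.0). IFI6 was at 50.1 and 57.5 CPM in uninjured, 26.3 and 15.5 in day 1 and 792 and 672 in day 3 cells (3.75 and 5.10). Both were lower at day 1 than at day 3 in every sample. All 20 ribosomal protein genes tested were higher than in uninjured cells (median 1.04) and 18 were higher than at day 1 (median 0.59). Immediate early genes were lower than in uninjured cells in 13 of 19 cases (median -0.65), among them NR4A1 (-1.93) and FOS (-1.57). Of 9 Notch genes 5 were lower and none higher than in uninjured cells, and 6 were higher and 2 lower than at day 1.

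Retinoid genes changed against both days. CYP26A1, which breaks down retinoic acid, was at 969.7 and 956 CPM in uninjured, 117 and 207 in day 1 and 3.56 and 3.87 in day 3 KRT12-high cells (-8.00 ± 0.26 and -5.39 ± 0.33). The samples of the 3 days do not overlap. CYP26B1, which does the same, was highest at day 1, at 7.75 and 10.0 CPM in uninjured, 522 and 540.4 in day 1 and 49.9 and 39.7 in day 3 cells (2.30 and -3.55). PCK1, the gluconeogenic enzyme, had 2275 counts in uninjured and 18 in day 1 KRT12-high cells and was not listed at day 3. BBOX1, the last enzyme of carnitine synthesis, was lower than in uninjured cells by a ratio of 64.7 (interval 21.9 to 315). FTH1 was at 15363 and 14894 CPM in uninjured, 15688 and 16496 in day 1 and 5893 and 5486 in day 3 cells (-1.42 ± 0.079 and -1.50 ± 0.079). HMOX1, the heme-degrading enzyme, was highest at day 1, at 5.36 and 4.74 CPM in uninjured, 203 and 218 in day 1 and 82.0 and 78.4 in day 3 cells (3.96 and -1.38).

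Against day 1, 7 of 23 mitosis genes had enough counts to be tested. Of these, 5 were higher and none lower, or 2 and 0 with the fixed cuts. In 2 of the 7, 1 of the groups had no count. A gene with no count at day 1, such as TOP2A, passed the filter only through another day and could not have been called lower. TOP2A had no count in day 1 KRT12-high cells and 11.6 and 18.4 CPM at day 3, at least 11.3-fold higher. Its uninjured level was 10.7 and 17.4 CPM, which did not differ by the test. Tight and gap junction genes were lower than at day 1 in 7 of 9 cases with 1 higher (median -1.12). CLDN7 was at 1302 and 1387 CPM at day 1 and 418 and 352 at day 3 (-1.80), and 458 and 433 in uninjured cells. CLDN4 was at 943 and 1022 CPM in uninjured, 1573 and 1842 in day 1 and 664 and 571 in day 3 cells (-0.68 and -1.46). Hemidesmosome and integrin genes were higher than at day 1 in 11 of 19 cases and lower in 2, with 7 and 5 under the fixed cuts. SFN was at 1375 and 1401 CPM in uninjured, 9795 and 11048 in day 1 and 4435 and 4199 in day 3 cells (1.62 and -1.27), so that its day 3 level lay between the others. SERPINB2, an inhibitor of plasminogen activators, was at 14.3 and 24.2 CPM in uninjured, 469.5 and 484 in day 1 and 463 and 403 in day 3 cells (4.45 against uninjured cells, with no call against day 1). WNT4 rose by 2.83 against day 1, from 0.796 and 5.80 to 19.6 and 25.2 CPM, and its uninjured level was 41.1 and 36.9. Of 10 Wnt genes 7 were higher and 2 lower than at day 1, or 4 and 2 with the fixed cuts. DKK3, a secreted Wnt modulator, was at 162 and 147 CPM in uninjured, 169 and 197 in day 1 and 46.3 and 44.5 in day 3 cells, lower than in both (-1.77 against uninjured cells).

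The last question was whether the ratio of KRT12-high to KRT12-low cells itself changed, where a higher ratio can mean a smaller distance if KRT12-high cells had been the lower group. The ratio at day 3 differed from that in uninjured samples for 1762 of 10958 genes (16.1%), 750 (6.84%) with a higher and 1012 (9.24%) with a lower log2 ratio (median 0.01 over all genes). It differed from that at day 1 for 1988 genes (18.1%), 1089 (9.94%) and 899 (8.2%) in turn (median 0.04). Thinning barcodes to 2000 counts, which left out 460 and 304 uninjured KRT12-low barcodes, gave 303 higher and 246 lower against uninjured samples. Against day 1 it gave 469 and 293. Mitochondrial genes held 11.3% and 11.2% of counts in uninjured KRT12-low cells against 6.85% and 7.06% in KRT12-high cells. At day 3 these shares were 4.31% and 4.155% against 4.42% in both samples. The KRT12 limits of the KRT12-high and KRT12-low groups differed by day, as given above. The part of depth, mitochondrial share and KRT12 limits in the counts was not tested. KRT3 had a higher ratio than in uninjured samples (1.34 ± 0.12) and a lower one than at day 1 (-1.01 ± 0.14). PAX6 had similar levels in both groups of uninjured samples. Its KRT12-low cells were at 569.7 and 586 CPM there, beside 597 and 637 in KRT12-high cells, and the log2 ratio at day 3 was higher by 0.80 ± 0.10.

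FTH1 changed sides. It was at 15363 and 14894 CPM in KRT12-high and 6638 and 5649 in KRT12-low cells of uninjured samples, and at 15688 and 16496 against 7229 and 7103 at day 1. At day 3 it was at 5893 and 5486 against 13334 and 12199, so that the KRT12-high cells were the lower group in both samples. The ratio fell by 2.47 on the log2 scale against uninjured samples and by 2.33 against day 1. CYP26A1 changed sides too, from 969.7 and 956 against 95.3 and 187 CPM in uninjured samples to 3.56 and 3.87 against 21.7 and 19.5 at day 3 (-5.20 ± 0.45). KRT14 went from 32.8 and 80.1 CPM in KRT12-high cells of uninjured samples against 2846 and 2169.7 to 13794 and 14087 against 21773 and 20347 at day 3 (4.83 ± 0.17 against uninjured samples and 3.81 ± 0.16 against day 1). IFI27 and IFI6 had lain below KRT12-low cells at day 1, at 72.4 and 58.0 against 1467 and 1007 CPM and 26.3 and 15.5 against 446 and 345, and their log2 ratios at day 3 were higher by 4.58 and 4.44. At day 3 the groups lay close, at 2189.6 and 2006 against 1753 and 1579 CPM for IFI27 and 792 and 672 against 700.2 and 564 for IFI6.

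By list, 19 of 20 ribosomal protein genes had a higher ratio at day 3 than in uninjured samples (median 0.54) and none a lower one. Mitosis genes had a lower ratio in 9 of 17 cases with none higher (median -1.64), and actin genes in 11 of 18 with none higher. CDK1 was at 3.58 and 3.16 CPM in KRT12-high and 3.16 and 5.11 in KRT12-low cells of uninjured samples, and at 2.67 and 5.81 against 30.9 and 36.6 at day 3 (-2.67 ± 0.76). Genes this rare in KRT12-high cells passed the filter only through other groups. The lack of higher ratios among mitosis genes was thus set in part by the filter. Between the day 3 groups themselves DESeq2 called 2 of the 17. Cholesterol synthesis genes had a lower ratio in 9 of 13 cases against uninjured samples and in 6 against day 1, with none higher in either. Against day 1, interferon genes had a higher ratio in 10 of 21 cases and none a lower one (median 1.29).

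**Figure D5:**
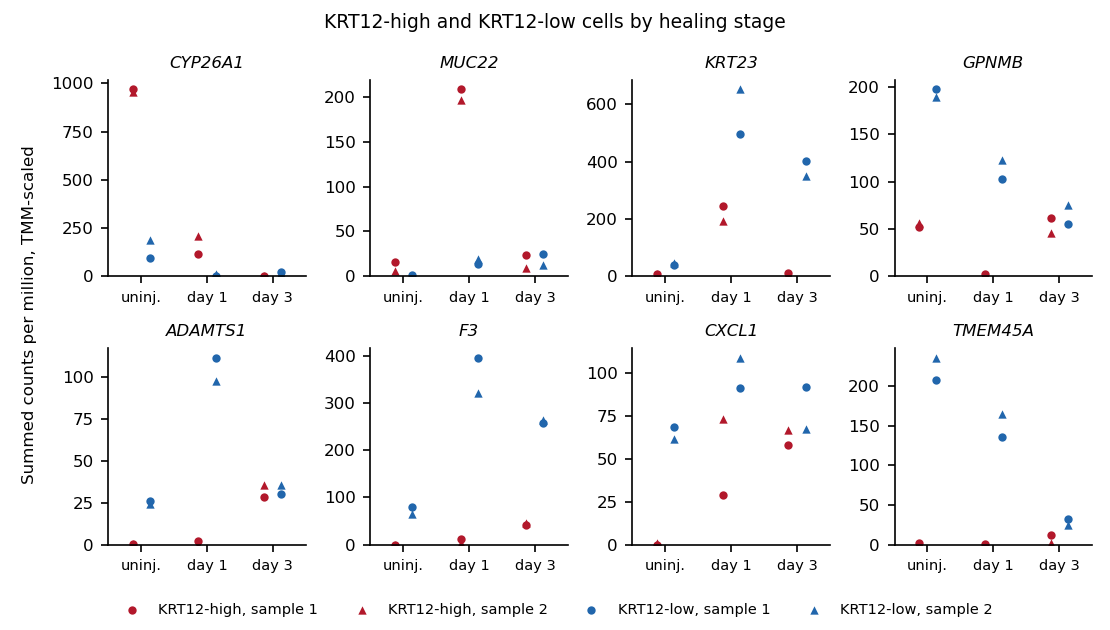
Levels of 8 genes in CPM in KRT12-high cells (red) and KRT12-low cells (blue) of each sample of each day, chosen among those whose ratio changed most. CYP26A1 goes from 969.7 and 956 CPM in KRT12-high cells of uninjured samples to 3.56 and 3.87 at day 3, where the KRT12-low cells are above it.

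Isoform use was compared between KRT12-high cells and KRT12-low cells at day 3 through the deposited isoform counts, which held 157 of 274 (57.3%) and 150 of 267 (56.2%) of the KRT12-high barcodes. The missing ones were deeper, with medians of 5371 and 5288 counts against 3905 and 3677. Of 766 isoforms of 358 genes tested, 0 (0.0%) differed in their share of the gene after adjustment by edgeR's exon-usage test, 20 had an unadjusted p under 0.05, and 1 was called without the sample as a block. Full splice matches to annotated transcripts made up 81.6% and 81.1% of isoform counts in KRT12-high cells and 83.6% and 82.5% in KRT12-low cells.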

How the data were processed

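Gene counts per barcode were deposited by the authors as whole numbers, and the submitters' processing notes name Cell Ranger without a version. The genome build is not given in the sources used here. Isoform counts per barcode, with isoform classes, were deposited by the authors as well. Barcodes were ranked within each sample by KRT12 counts over total counts, and raw counts without KRT12 were summed per group and sample. The 12 sums were fitted with edgeR 4.0.16 (filterByExpr, TMM, quasi-likelihood F test, R 4.3.3) with the sample as a block and the KRT12 group within day, which left 3 residual degrees of freedom. The 6 KRT12-high sums were fitted by day without a block. Adjusted p-values are Benjamini-Hochberg over all genes tested, called at 0.05, and CPM are TMM-scaled from the first fit. The scripts were tested on simulated data. Isoform shares were tested with edgeR's diffSpliceDGE on isoforms of the matching barcodes. Doublets were scored with Scrublet in scanpy 1.11.5. DESeq2 1.42.0, scaling to totals, a top 10% cut, thinning to 2000 counts per barcode, other comparators, omitted samples and replicate blocks were tried as alternatives.

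Genes named by rule were the called genes of a list with the most extreme log2 values, at most 4 per list (3 between days), plus the 10 highest and 10 lowest called genes at an average log2 CPM of at least 5 (5 and 5 for the other comparisons). Further list members were named after their values were seen. The members and lists were chosen with earlier results of these data known. Intervals and floors of 3 counts cover counting error only. High and low sums of a sample come from the same sample, so the sample is their block, and their deviations correlated at 0.093, 0.12 and 0.086. Same-numbered samples of different days gave r of 0.022, 0.030 and -0.011. Sums known to share a sample correlated only weakly themselves, so these values cannot tell whether a number marks a shared animal between days.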

Additional observations from a re-analysis of the deposited data

Results flagged for a closer look

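The results here were flagged because the log2 ratio of KRT12-high to KRT12-low cells at day 3 differed, by edgeR's test of the difference itself, from that in uninjured or day 1 samples, and was among the 5 highest or 5 lowest. The ratio of CYP26A1 changed by -5.20 against uninjured samples and by -7.11 against day 1. MUC22, a mucin of the glycocalyx, changed by -4.44 and -3.82, and was at 15.5 and 6.33 CPM in uninjured, 208 and 196 in day 1 and 23.2 and 9.68 in day 3 KRT12-high cells. KRT23 changed by -3.97 against day 1, with KRT12-high cells at 244 and 191 CPM then and 11.6 and 6.78 at day 3, and its KRT12-low cells at 401 and 350.1.

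Against uninjured samples the ratio also fell for FBLN2 (-4.26), an extracellular matrix fibulin, for CTSH (-4.12), a lysosomal protease, and for ADORA2B (-3.84), an adenosine receptor. CTSH was at 228 and 216 CPM in KRT12-low cells at day 3 and 22.3 and 21.3 in KRT12-high cells. Against day 1 it fell for CYP27A1 (-3.05), a sterol hydroxylase, and PPP1R3C (-3.04), a glycogen-targeting subunit of protein phosphatase. PPP1R3C was at 213 and 205 CPM in KRT12-high cells against 30.6 and 30.3 at day 1, and at 114 and 105 against 143 and 119 at day 3.

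The ratio was higher than in uninjured samples for F3 (7.34), the tissue factor that starts clotting, for the chemokines CXCL1 (6.31) and CXCL8 (4.95), for TMEM45A (5.98) and for ADAMTS1 (5.26), a secreted protease. F3 had no count in uninjured KRT12-high cells and was at 41.9 and 45.5 CPM at day 3, and CXCL1 went from 0 and 1.05 to 57.9 and 66.8 CPM. The ratio was higher than at day 1 for TMEM45A (6.24), ADAMTS1 (6.21), GPNMB (6.07), a melanosomal and lysosomal glycoprotein, TNNT3 (5.43) and FAM3D (4.67). TNNT3 stood below KRT12-low cells at day 1, at 199 and 195 against 821 and 851 CPM, and above them at day 3, at 57.9 and 69.7 against 6.45 and 5.86. GPNMB was at 2.39 and 0 CPM in day 1 and 61.5 and 45.5 in day 3 KRT12-high cells. Several of these ratios rest on groups with 0 to 3 counts at an earlier day, where the fitted value depends on the prior count and is no bound. TMEM45A lost its call in both comparisons without day 3 sample 1.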

How the results depend on the processing

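Counts of called genes are given as higher and lower, in the order day 3 KRT12-high against KRT12-low, the difference of that ratio from uninjured and from day 1 samples, and KRT12-high cells against uninjured and against day 1. DESeq2 gave 436 and 651, 300 and 372, 411 and 359, 1281 and 681, and 1270 and 1073. A top 10% cut gave 823 higher in the first, 469 higher in the second, 582 and 510 in the third, 1088 and 885, and 1104 and 946. Thinning to 2000 counts per barcode gave 628 and 820, 303 and 246, 469 and 293, 1118 and 913, and 1271 and 1125. Totals alone gave 1172 and 3665 against uninjured cells. The comparator without KRT4 or KRT7 counts gave 606 and 594, and 672 lower in the second. All other barcodes as comparator gave 477 lower in the third. Omitting each sample in turn gave 645 to 1308 and 941 to 1577, 553 to 795 and 709 to 1025, 701 to 1161 and 553 to 949, 1695 to 2276 and 1238 to 1812, and 1812 to 2125 and 1686 to 2004. Fits that leave a group with 1 sample assume that it varies like the others, and no isoform count was had that way. Without the sample as a replicate block the first 3 gave 1014 and 1218, 542 and 770, and 831 and 711, and 1 isoform was called. With a replicate block between days the last 2 gave 1986 and 1636, and 2096 and 1979. Among 155 genes named by rule for day 3 KRT12-high against KRT12-low, DESeq2 kept the call of 114 and lost that of 41. The comparator without KRT4 or KRT7 counts kept 110 and lost 29. Against uninjured and day 1 cells DESeq2 kept 99 and 112 and lost 11 and 5. Directions reversed for CLU against uninjured cells (-0.13 with totals alone, -0.050 with fixed cuts), for DCN at day 3 (-0.044 with all other barcodes, -0.40 without KRT4 or KRT7 counts), and for DHCR7 (-0.0010) and LSS (-0.056) in that last setting. The causes were not tested. There were 2 samples a group, and KRT12-high sums at day 3 started from 1116466 counts.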
